A study of Mus musculus with 27 samples.

Results

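P1 cells are the CD105- CD200+ fraction of Prx1-lineage cells, and the 6 libraries of P1 cells described here came from 2 tissues of the mouse hindlimb, with 3 libraries from skeletal muscle and 3 from periosteum, the cell layer that covers bone. They were chosen by their titles from the 27 libraries of the series, and all 30151 entries with a symbol, the transgene among them, were considered. The mice carried Prx1-CreER, the Ai14 reporter and a Rag1 deficiency, in both tissues alike, and cells were taken as adults after tamoxifen, which switches on tdTomato wherever the Prx1 enhancer drives the recombinase. Live cells were sorted as tdTomato positive and CD45-, then split by CD105 and CD200 into P1, P2 (CD105- CD200-) and P3 (CD105+ with variable CD200). The labels state that every tissue was taken from the same animals but not which animal gave which library, so the p-values measure the spread between these libraries and the replicate numbers are names. Muscle was dissected away from tendon and digested with collagenase for longer than periosteum, which was scraped from the bone first. Tissue, dissection and digestion time therefore cannot be told apart in this comparison.

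Prx1 (Prrx1) marks the limb mesenchyme from which bone, cartilage, tendon and connective tissue cells descend, and adult Prx1-lineage cells remain in bone marrow, periosteum and muscle. Periosteum holds osteochondral progenitors and bone-forming osteoblasts that drive appositional growth and fracture repair. Muscle holds interstitial fibroblasts, also called fibro-adipogenic progenitors, which support muscle fibres and their stem cells and can form bone when exposed to bone morphogenetic proteins. The comparison asks how cells sorted through the same surface gate differ between these 2 sites.

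Values are the authors' normalized counts, which are not corrected for transcript length, so each gene is compared with itself and levels are not ranked between genes. The normalized counts of a library summed to between 11219300 and 12299400 in muscle and between 12855800 and 13833500 in periosteum. Genes above 0 numbered 16803 to 17866 in the muscle libraries and 13173 to 15053 in the periosteum libraries. The 10 genes with the highest values took 10.4% to 11.4% of the total in muscle and 16.1% to 25.6% in periosteum. Across the 13493 genes tested, Pearson's r of the log2 values was 0.87 to 0.90 between muscle libraries and 0.64 to 0.71 between periosteum libraries, and 0.61 to 0.68 between tissues, as a description with genes as the points. The periosteum libraries were thus nearly as unlike each other as they were unlike muscle.

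Genes of the sort markers were checked against the labels, as far as RNA can show them. The transgene entry of the table was present at 16555, 22120 and 19372 normalized counts in muscle and at 13208, 19965 and 17453 in periosteum. Prrx1 was at 1266, 1202 and 1313 in muscle and at 4578, 1516 and 2544 in periosteum. Cd200, which encodes the antigen of the positive gate, was at 1025, 3274 and 2560.4 in muscle and at 3972, 2614 and 2607 in periosteum. Neither gene passed the test (limma adjusted p = 0.19 for Prrx1 and 0.53 for Cd200). Eng, which encodes CD105, was at 178, 382 and 367 in muscle and at 38.7, 159 and 10.4 in periosteum, with no overlap and an adjusted p of 0.22. Ptprc, which encodes CD45, reached 14.8 at most and did not pass the filter on low values.

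A gene was called differentially expressed when its limma adjusted p was below 0.05 and its log2 fold change, on log2(normalized count + 1), was above 1.5 in size. Of 13493 genes tested, 800 (5.93%) were called, of which 645 (4.78%) were higher in muscle and 155 (1.15%) higher in periosteum. In all 800 the muscle and periosteum libraries did not overlap, as was so for 3832 (28.4%) of all genes tested. Genes called higher in muscle were often those with little signal in periosteum: 430 of the 645 stood at 10 or more in every muscle library and below 10 in every periosteum library, and 200 called genes were listed at 0 in all 3 periosteum libraries. Among the 4223 genes with a mean of 500 or more over the 6 libraries, 164 were called higher in muscle and 122 higher in periosteum. Over all 13493 genes the log2 fold changes had a median of 0.41, and 61.4% of them lay above 0. After quantile normalization this median was -0.05 and the calls were 423 higher in muscle and 265 higher in periosteum, so the share of calls on the muscle side depends on the scaling. Changes below are therefore to be read against a median of 0.41.

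**Figure D1:**
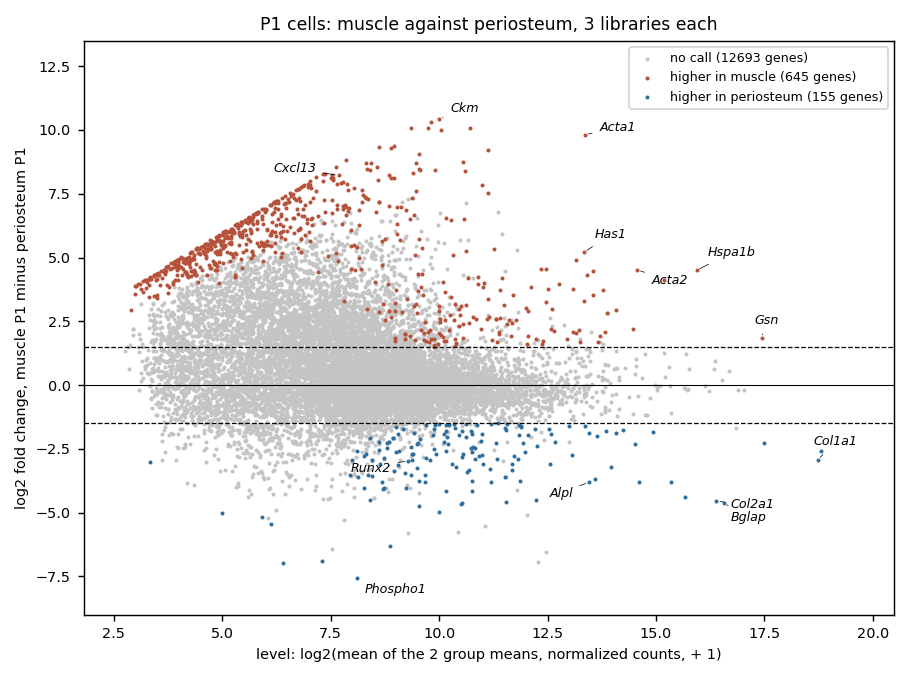
Log2 fold change of each of 13493 genes (muscle P1 minus periosteum P1, 3 libraries each) against its level, the log2 of the mean of the 2 group means plus 1. Red points are the 645 genes called higher in muscle, which crowd the low levels at the left, and blue points the 155 called higher in periosteum, which include the genes at the far right such as Col1a1 and Bglap; dashed lines mark the fold limit of 1.5.

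The largest log2 fold changes toward muscle came from genes close to 0 in periosteum, and several are genes of muscle fibres. Olfr78, an olfactory receptor family member, was at 663, 2176 and 2548 in muscle and at 0, 0 and 0.773 in periosteum. Xdh (xanthine dehydrogenase) was at 1964, 2059.7 and 1151 in muscle and at 2.64, 0 and 0 in periosteum, and Medag, which promotes fat cell formation, at 2455, 2475 and 1361 in muscle and at 6.61, 0 and 0 in periosteum. The muscle libraries held all of the signal of these 3 genes but traces. Fam132b, Atp2a3 and Asb2 had the same pattern, as did Tcap, Mb, Myot and Tnnt3, which belong to the sarcomere or the oxygen store of muscle fibres. Among the most abundant genes, Flna (filamin A, which cross-links actin) was at 20589, 41654 and 51144 in muscle and at 7327, 7158 and 8949.8 in periosteum, 4.54-fold higher in muscle. Toward periosteum, Slc8a3, a sodium and calcium exchanger, was at 70.5, 59.6 and 39.3 in muscle and at 2262, 2765 and 887 in periosteum (31.7-fold). Slc13a5, a citrate transporter that osteoblasts use, was at 21, 99.6 and 52.1 in muscle and at 1866, 1674 and 708 in periosteum (26.7-fold). D3Ertd254e, Prss50, R3hdml and Calml3 had larger fold changes from muscle values of 24.4 or less.

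Genes of bone matrix were higher in the periosteum P1 libraries. The paper raises the possibility that P1 cells include osteoblasts or osteocytes, since CD200 also labels mature osteogenic cells. In bulk RNA, more such cells and more RNA per cell cannot be told apart. This holds for the osteoblast and cartilage genes below too. Of 20 measured genes of bone matrix and mineralization, 14 were called higher in periosteum and 0 higher in muscle, against 1.15% and 4.78% of all genes, and the list's median log2 fold change was -2.94. Bglap encodes osteocalcin, a protein made by mature osteoblasts, and stood at 4030.4, 13336 and 7243 in muscle and at 132686, 234950.0 and 189423 in periosteum. Every periosteum library of Bglap was far above every muscle library, a 24.8-fold difference (log2 fold change -4.63, SE 0.44, adjusted p = 0.0056). Its neighbour Bglap2 rose with it, 21.2-fold, but the 2 genes are near copies and their reads may have been split between them. Ifitm5, a membrane protein of mineralizing osteoblasts, stood at 125, 491 and 203 in muscle and at 3769, 6997 and 6445 in periosteum.

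The genes that build and calcify the matrix followed. Col1a1 and Col1a2 encode the chains of type I collagen, the main protein of bone. Col1a1 was at 72212, 117997 and 105977 in muscle and at 493351, 961564 and 853507 in periosteum, which is 7.65-fold higher. Col1a2 was 5.99-fold higher in periosteum, and Sparc (osteonectin), which binds collagen and calcium, 4.83-fold higher. Ibsp (bone sialoprotein) was at 2784, 6951 and 4967 in muscle and at 23002, 101367 and 110191 in periosteum. Spp1 (osteopontin) was at 4038, 1473 and 3518 in muscle and at 16319.6, 80431 and 43069 in periosteum. Periosteum replicate 1 was the lowest of its group for Col1a1, Ibsp and Spp1, yet still above every muscle library. Alpl, the alkaline phosphatase that frees phosphate for mineral, was at 1224, 1729 and 1462 in muscle and at 14501, 25285 and 23237 in periosteum, a log2 fold change of -3.81 with an SE of 0.27.

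Phospho1, a phosphatase that starts mineral inside matrix vesicles, had the largest log2 fold change of the 155 genes called higher in periosteum, -7.57. Phospho1 was at 0.284, 3.35 and 2.95 in muscle and at 390.1, 711 and 542 in periosteum. The low muscle values make its fold depend on the added 1. Smpd3, which supplies the substrate of the Phospho1 reaction, was 5.26-fold higher in periosteum. Dmp1 and Phex, both genes of osteocytes and of phosphate control, were 9.68-fold and 7.68-fold higher. Sost and Fgf23, made by mature osteocytes, did not pass the filter, with highest values of 5.67 and 9.64 in any of the 6 libraries. The members without a call included Fam20c, Enpp1, Mepe, Col24a1 and Tnn, and Col24a1 stood at 3.16 in periosteum replicate 1 against 1155 and 887 in the others. Leaving out 1 library at a time gave between 11 and 14 calls.

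The bases before the start of Bglap and Ibsp are shown because these genes carry the osteoblast difference. They come from RefSeq on GRCm38.p6, run 5′ to 3′ on the gene's own strand and end at the base before transcription starts. Capitals mark ACCACA, the core of the site that RUNX factors bind, searched on both strands.
Bglap: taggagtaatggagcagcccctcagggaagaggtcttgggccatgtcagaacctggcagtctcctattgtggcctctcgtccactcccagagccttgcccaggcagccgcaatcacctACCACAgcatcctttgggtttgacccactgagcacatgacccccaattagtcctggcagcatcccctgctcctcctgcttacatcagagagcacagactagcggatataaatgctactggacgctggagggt
Ibsp: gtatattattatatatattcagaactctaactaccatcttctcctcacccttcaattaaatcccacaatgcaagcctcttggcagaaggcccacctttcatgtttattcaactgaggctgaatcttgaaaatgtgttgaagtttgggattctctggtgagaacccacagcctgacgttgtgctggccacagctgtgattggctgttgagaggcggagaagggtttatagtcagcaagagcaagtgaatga
The Bglap stretch is chr3:88384467-88384716 on the minus strand and holds 1 match, which starts 132 bases before the transcription start. The Ibsp stretch is chr5:104299037-104299286 on the plus strand and holds 0. Of the 14 called bone genes, 11 matched the promoter table and 3 (Bglap, Spp1 and Dmp1) held the letters, against 15.9% of 27025 genes with a promoter in the table.

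Transcription factors of the osteoblast lineage differed in the same direction. Of 11 measured, 5 were called higher in periosteum and 0 higher in muscle, with a median log2 fold change of -1.56. Runx2, required for osteoblasts to form, was at 115, 182 and 129 in muscle and at 1073, 929.8 and 1319 in periosteum (7.83-fold, adjusted p = 0.0066). Sp7 (osterix), which acts after Runx2, was at 86.3, 137 and 99.8 in muscle and at 1491, 1043 and 2078 in periosteum (13.9-fold, adjusted p = 0.0056). Dlx3 and Dlx5, homeobox genes that activate osteoblast promoters, had log2 fold changes of -4.03 and -3.47. Runx2, Sp7, Dlx3 and Dlx5 were present in every muscle library at low levels, so the libraries differed in the amount of this RNA. Whether few cells held it or many cells held little cannot be told in bulk RNA. Atf4, Msx1, Zfp521 and Dlx6 had no call, and Msx2 did not pass the filter. With the spread estimated over all 27 libraries 0 of the 11 were called. Without muscle replicate 1 the number was 3, and without periosteum replicate 3 also 3.

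**Figure D2:**
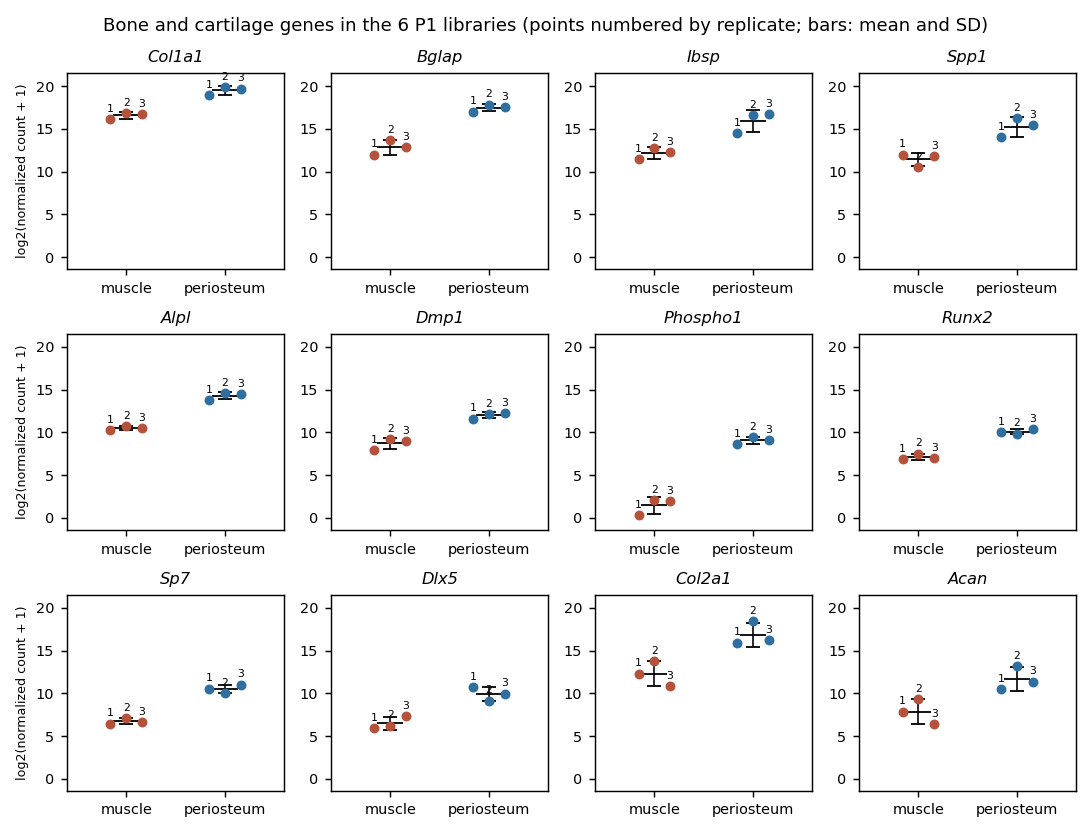
Bone and cartilage genes in the 6 P1 libraries, one panel per gene, with log2(normalized count + 1) on the vertical axis. Numbered points are replicates, and bars show the mean and SD of 3 libraries; in all 12 panels the 3 periosteum points lie above the 3 muscle points, and replicate 2 is the highest of each tissue for Col2a1 and Acan.

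Cartilage genes were also higher in periosteum, but with a wide spread between libraries. Of 27 measured, 7 were called higher in periosteum and 0 higher in muscle, while 18 did not overlap in that direction, against 10.8% of all genes, and 2 did not overlap in the other. The median log2 fold change was -3.60. Col2a1, the main collagen of cartilage, was at 5054, 14155 and 1812 in muscle and at 62224, 359279 and 75226 in periosteum (log2 fold change -4.55, SE 0.87, adjusted p = 0.022). Acan encodes aggrecan, the large proteoglycan of cartilage, and was at 232, 627 and 83.9 in muscle and at 1433, 9057 and 2622 in periosteum. In both genes replicate 2 was the highest library of each tissue. Col11a2 and Col11a1, minor fibril collagens of cartilage, were 12.9-fold and 9.39-fold higher in periosteum with smaller spread. Col9a2, Mia and Comp completed the called genes, and Comp, which is also made in tendon, was 3.64-fold higher.

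Col10a1, a gene of hypertrophic chondrocytes, shows the spread behind the cartilage genes without a call. Col10a1 was at 29.8, 2399 and 1.13 in muscle and at 3657, 19594 and 4022 in periosteum, with an adjusted p of 0.14. Col9a3 (adjusted p = 0.058), Col9a1 (0.057) and Hapln1 (0.13) likewise had every periosteum library above every muscle library. Sox9, the master factor of chondrocytes, was at 841, 779.6 and 478 in muscle and at 883, 3608 and 1119 in periosteum, without a call. Prg4, the lubricin of joint surfaces, was at 4009.9, 2359 and 2803 in muscle and at 2037, 1149.7 and 571 in periosteum, and had no call (adjusted p = 0.14). The count of called cartilage genes fell to 2 without muscle replicate 1 and to 3 without muscle replicate 3, and was 8 without muscle replicate 2, the muscle library with the highest Col2a1 and Acan.

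Tendon genes had no call in either direction. All 10 were tested and their median log2 fold change was 0.05. Tnmd (tenomodulin) was at 4728, 3919 and 5914 in muscle and at 5843, 5220.4 and 2929.9 in periosteum, and Scx, the factor that specifies tendon cells, at 79.5, 66.1 and 249 in muscle and at 113, 42.6 and 227 in periosteum. Fmod (fibromodulin) was at 84576, 43268 and 85692 in muscle and at 94509, 73525 and 49053 in periosteum. The groups overlapped for these 3 genes. Among 12 small leucine-rich proteoglycans, Bgn (biglycan) was 3.55-fold and Omd (osteomodulin) 2.97-fold higher in periosteum, while Dcn (decorin) was 1.45-fold higher in muscle without a call. Toward periosteum 1 gene of this list was called without any 1 library other than periosteum replicate 2. Of 23 collagens outside bone and cartilage, Col8a1 (6.65-fold) and Col5a2 (3.41-fold) were called higher in periosteum, and Col4a5 and Col4a3, chains of basement membrane collagen, higher in muscle. Without muscle replicate 1 or 2 the list gave 0 calls toward periosteum and 1 toward muscle, without muscle replicate 3 it gave 1 and 2, and without periosteum replicate 1 it gave 4 and 6. Col4a5 stood at 656, 719.6 and 697 in muscle and at 0, 0 and 3.53 in periosteum. Col3a1, the type III collagen of loose connective tissue, was at 92309, 93542 and 104576 in muscle and at 92889, 30484 and 87248 in periosteum.

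Markers of other cell types of muscle were higher in the muscle libraries, and these values stand beside every gene group described from here on as higher in muscle. Of 27 myofibre markers, 16 were called higher in muscle and 0 higher in periosteum, with a median log2 fold change of 6.79. Their summed level was 38861 to 78331 in muscle and 837 to 1765 in periosteum, and Casq1 and Myh4 were listed at 0 in all 3 periosteum libraries. Acta1, skeletal muscle actin, was at 22648, 26001 and 14187 in muscle and at 2.01, 156 and 23.2 in periosteum. Ckm (muscle creatine kinase) was at 2181, 2724 and 1236 in muscle and at 0, 0 and 1.77 in periosteum. The libraries did not overlap for either gene. Satellite cell markers were called in 3 of 11 (Megf10, Myf5 and Myod1), and Pax7, which defines these muscle stem cells, was at 428, 242 and 228 in muscle and at 0, 0 and 31.8 in periosteum (adjusted p = 0.058). The satellite cell list summed to 10137 to 11139 in muscle and 170 to 1200 in periosteum. This sum includes Des, also on the myofibre and mural lists, with means of 5092 in muscle and 168 in periosteum.

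Vascular and nerve markers moved the same way. Of 13 endothelial markers, 4 were called higher in muscle (Esam, Cldn5, Emcn and Tie1), and the list summed to 7302 to 18744 in muscle and 744 to 2025 in periosteum. Pecam1, the endothelial adhesion molecule CD31, was at 496, 1042 and 941 in muscle and at 34.4, 253 and 118 in periosteum (adjusted p = 0.078). Of 12 mural cell markers, 5 were called higher in muscle. Acta2, smooth muscle actin, was at 24056, 54709 and 60522 in muscle and at 3195, 1401 and 1475 in periosteum (22.9-fold, adjusted p = 0.0056). Tagln and Myh11, further genes of the smooth muscle contractile apparatus, had log2 fold changes of 4.46 and 4.55, whereas the pericyte receptor Pdgfrb (1.46-fold) and Cspg4 (1.26-fold) had no call. Of 10 Schwann cell markers, 3 were called higher in muscle, Cdh19 among them. S100b, which chondrocytes also express, was called higher in periosteum, at 146, 235 and 159 in muscle and at 1311, 977 and 1148 in periosteum. The sums were 12469 to 13565 and 6113 to 9029 for the Schwann list. Of the 27 myofibre markers, 8 were called without muscle replicate 2 or 3 and 9 without muscle replicate 1. Of the satellite cell markers 0 were called without any 1 muscle library, and of the endothelial and Schwann cell markers 1 each was called higher in muscle. The mural count was then 3. In bulk RNA, more cells of a type and more of their RNA per cell cannot be told apart, and the part of these markers in the results below was not tested.

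Markers of blood cells gave no call. Of 22 leukocyte markers 6 passed the filter and 0 were called, and the list summed to 544 to 994 in muscle and 78.5 to 659.5 in periosteum. Erythroid markers were higher in the periosteum libraries by their sums, 15784 to 48565 against 3590 to 12602 in muscle, mostly globins. Hbb-bs was at 3062, 2599.8 and 822 in muscle and at 9633, 11817 and 5107 in periosteum (adjusted p = 0.062), and 0 of 8 measured erythroid genes were called. The part of erythroid RNA in the genes higher in periosteum was not tested. Osteoclast markers had 0 calls among 6 measured.

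Genes of fibro-adipogenic progenitors and of adventitial fibroblasts were higher in muscle. Of 20 measured, 9 were called higher in muscle, against 4.78% of all genes, and 0 higher in periosteum, while 15 did not overlap, against 17.6% of all genes in that direction. The median log2 fold change was 2.07. Has1, which makes hyaluronan, was at 23682, 27513 and 9385 in muscle and at 522, 321 and 732 in periosteum (36.8-fold, adjusted p = 0.0056). Tnfaip6, which cross-links hyaluronan in inflamed matrix, was at 7574, 12744 and 4595 in muscle and at 426, 587 and 601 in periosteum (14.3-fold). Both groups were well apart in these genes. Dpp4 and Pi16 mark progenitors in the sheath around vessels and muscle bundles. Dpp4 was at 3655, 4106 and 2769.7 in muscle and at 219.8, 47.2 and 562 in periosteum (19.1-fold). Pi16 was at 36859, 33536 and 18827 in muscle and at 9986, 2353 and 2241 in periosteum (7.61-fold). Procr, Dpt, Cd248, Sema3c and Gsn were also called.

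Periosteum replicate 1 had the highest adventitial values of its group, 214166 summed over the list against 91262 and 78640 in replicates 2 and 3, and 316207 to 538836 in muscle. Without it 15 of the 20 genes were called, and without any 1 muscle library 3 were called. Without periosteum replicate 2 or 3 the number was 4. Pdgfra, the receptor by which these cells are usually sorted, was at 4734, 3926 and 3576 in muscle and at 4431, 2832 and 1460.3 in periosteum and had no call (adjusted p = 0.42). Ly6a (Sca-1) was 2.68-fold higher in muscle, with an adjusted p of 0.11. Of 9 measured adipocyte genes, Cd36 and Fabp4 were called higher in muscle and 0 higher in periosteum. Adipoq was the only 1 of the 9 with a log2 fold change below 0 (-4.04). Its means were 24.1 in muscle and 499 in periosteum, without a call. Fabp4, a fatty acid carrier of adipocytes and capillary endothelium, was at 484, 1677 and 1913 in muscle and at 15.4, 57.4 and 40.3 in periosteum. Neither Cd36 nor Fabp4 was called without muscle replicate 2 or without muscle replicate 3.

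Most chemokines and inflammatory mediators were higher in muscle. Of 19 measured, 8 were called higher in muscle and 0 higher in periosteum, against 4.78% and 1.15% of all genes. The median log2 fold change was 3.73, and 4 of the 19 lay below 0. Cxcl1, which attracts neutrophils, was at 15995, 27689 and 9525 in muscle and at 271, 1234 and 459 in periosteum (30.1-fold, adjusted p = 0.0056). Ccl2, which attracts monocytes, was at 7227, 20228 and 2863 in muscle and at 592, 159 and 343 in periosteum (23.4-fold, adjusted p = 0.011). Muscle replicate 2 was the highest library for both. Ccl11 (eotaxin) was at 5907, 6132 and 3919.7 in muscle and at 140.3, 487 and 324 in periosteum. Il6 was at 774, 2320.0 and 960.2 in muscle and at 1.34, 40.1 and 16 in periosteum. Ptgs2, the inducible cyclooxygenase, was 13.3-fold higher in muscle, and Cxcl2, Cxcl10 and Cxcl13 were at 134 to 2079 in muscle with at least 1 periosteum library listed at 0 for each. Cxcl12, the chemokine by which marrow stroma retains blood stem cells, was at 3778, 2918 and 4145 in muscle and at 5623, 4051 and 9103 in periosteum and had no call. Without muscle replicate 1 the number called was 4.

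The bases before the start of Cxcl1 and Cxcl2 are given because these neighbouring genes differed together. Capitals mark the NF-kappaB consensus, searched on both strands.
Cxcl1: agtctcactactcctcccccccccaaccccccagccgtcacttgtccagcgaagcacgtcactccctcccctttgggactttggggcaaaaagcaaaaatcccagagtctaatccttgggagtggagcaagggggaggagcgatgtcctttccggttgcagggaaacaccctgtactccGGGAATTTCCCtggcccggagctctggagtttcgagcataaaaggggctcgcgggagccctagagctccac
Cxcl2: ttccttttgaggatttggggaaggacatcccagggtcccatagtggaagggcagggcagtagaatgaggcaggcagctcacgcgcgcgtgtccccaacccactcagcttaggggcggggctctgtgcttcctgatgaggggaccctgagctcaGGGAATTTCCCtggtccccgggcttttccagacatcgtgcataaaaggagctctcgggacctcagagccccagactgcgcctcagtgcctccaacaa
The stretches are chr5:90890995-90891244 and chr5:90903649-90903898, both on the plus strand, and each holds 2 overlapping matches. Of 8 called genes, 6 were in the promoter table and 4 (Cxcl1, Cxcl2, Cxcl10 and Il6) held the consensus, against 8.23% of all genes in the table. A match describes the letters in this window and does not show that the factor was bound.

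Of 14 measured complement genes, 3 were called higher in muscle. C3, the central protein of the cascade, was at 25886, 22366 and 17286 in muscle and at 4197, 1104 and 1360.2 in periosteum (11.7-fold higher in muscle, adjusted p = 0.0065). C7 and C1s1 were also called higher in muscle. Without periosteum replicate 1 the number was 6.

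Stress and immediate early genes stood higher in the muscle libraries. Of 30 measured, 8 were called higher in muscle and 0 higher in periosteum, with a median log2 fold change of 1.17. Hspa1b and Hspa1a encode the inducible heat shock protein 70. Hspa1b was at 130204, 138872 and 91246 in muscle and at 6684, 5498 and 3913 in periosteum (22.6-fold, SE 0.27 on the log2 scale, adjusted p = 0.0052). Hspa1a was at 72245, 86883 and 53528 in muscle and at 5424, 3732 and 3229 in periosteum (17.3-fold). Hspb1, a small heat shock protein, was at 15258, 32211 and 15004 in muscle and at 1064, 1008 and 896 in periosteum. For all 3 genes the spread within a tissue was small beside the difference between tissues. Their co-chaperones Hsph1 and Dnajb1 were 15.9-fold and 4.21-fold higher in muscle.

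Of the immediate early genes Fosl1, Nr4a3 and Nr4a1 were called. Fosl1, a member of the AP-1 family, was at 611, 1265 and 228 in muscle and at 24, 23.8 and 64.5 in periosteum (log2 fold change 4.03), and Nr4a3 had a log2 fold change of 3.17. Nr4a1, a nuclear receptor induced within minutes of a stimulus, was at 15145, 17656 and 14445 in muscle and at 3536, 4016 and 2982 in periosteum (4.50-fold). Fos was at 74120.5, 57792 and 69771 in muscle and at 35832, 50435 and 44268 in periosteum and had no call (1.55-fold, adjusted p = 0.17). Egr1 was 2.34-fold higher in muscle with an adjusted p of 0.018, below the fold limit. For both genes the muscle libraries lay above the periosteum libraries without overlap. Muscle was digested for longer than periosteum, and the part of digestion in these values was not tested. The count of called genes was 4 without muscle replicate 1 or 2.

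The bases before Hspa1a, Hspa1b and Hspb1 are shown because these are the heat shock genes of the largest fold change and because the first 2 are near copies. Capitals mark the heat shock element core GAANNTTC, which reads alike on both strands.
Hspa1a: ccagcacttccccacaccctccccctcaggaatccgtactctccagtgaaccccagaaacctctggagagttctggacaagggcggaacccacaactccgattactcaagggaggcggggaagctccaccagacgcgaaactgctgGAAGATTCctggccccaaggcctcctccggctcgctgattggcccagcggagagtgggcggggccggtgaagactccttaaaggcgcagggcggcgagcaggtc
Hspa1b: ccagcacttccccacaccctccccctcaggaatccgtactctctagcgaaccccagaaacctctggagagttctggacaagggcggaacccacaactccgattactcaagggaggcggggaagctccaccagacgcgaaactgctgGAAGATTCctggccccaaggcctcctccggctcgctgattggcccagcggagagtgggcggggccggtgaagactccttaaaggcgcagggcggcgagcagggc
Hspb1: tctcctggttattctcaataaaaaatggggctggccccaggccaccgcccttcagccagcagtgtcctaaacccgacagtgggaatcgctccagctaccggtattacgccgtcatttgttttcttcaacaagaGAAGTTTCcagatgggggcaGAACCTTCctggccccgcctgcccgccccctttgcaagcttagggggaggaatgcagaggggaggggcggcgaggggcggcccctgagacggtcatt
The first stretch is chr17:34972157-34972406 and the second chr17:34959239-34959488, both on the minus strand, and they differ at 3 of 250 positions. The third is chr5:135887669-135887918 on the plus strand. The core was found 1 time in Hspa1a and in Hspa1b and 2 times in Hspb1, and in 3 of the 7 called genes with a promoter in the table, against 7.73% of all genes. Since the Hspa1a and Hspa1b transcripts are alike too, the split of reads between them is uncertain.

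**Figure D3:**
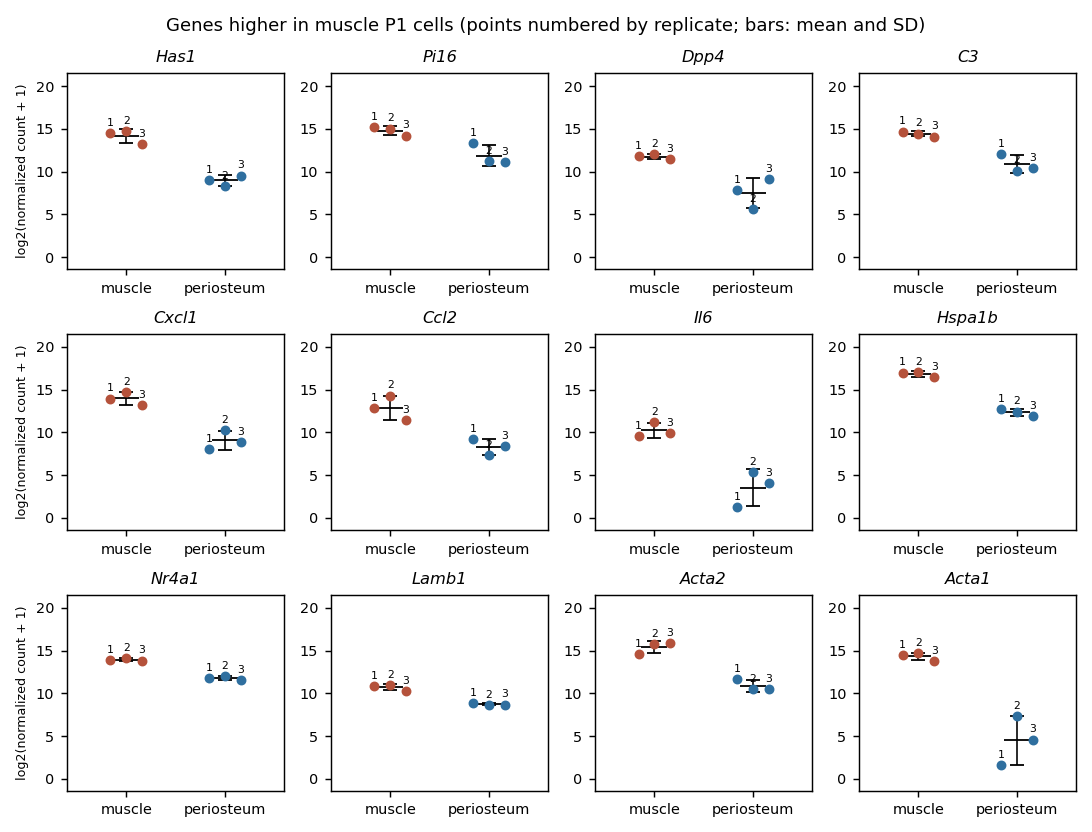
Genes called higher in muscle P1 cells, one panel per gene, with log2(normalized count + 1) on the vertical axis for the 6 libraries. Numbered points are replicates and bars the mean and SD of 3 libraries; in all 12 panels the 3 muscle points lie above the 3 periosteum points, and the spread among periosteum libraries is widest for Acta1, Il6 and Dpp4.

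Basement membrane genes were higher in muscle. Of 14 measured laminins and partners, 4 were called higher in muscle and 0 higher in periosteum, with a median log2 fold change of 1.29. Lamb1 was at 1843, 1942 and 1255 in muscle and at 475, 396 and 409 in periosteum (3.87-fold). Lamc1 and Nid1 were called as well, and the count was 1 without muscle replicate 1 or 2 and 2 without muscle replicate 3 or periosteum replicate 3. Matrix proteases and their inhibitors were called in both directions. Timp1, an inhibitor of metalloproteinases, was at 536, 752 and 828 in muscle and at 5695, 5673 and 6362 in periosteum (8.50-fold). Mmp13, the collagenase of bone and hypertrophic cartilage, was 3.43-fold higher in periosteum and Mmp16 16.8-fold. Mmp3 and Adamts4 were called higher in muscle, Mmp3 at 219.8, 258 and 197 in muscle and 3.33, 0 and 1.77 in periosteum. Without any 1 muscle library, 1 gene of this list was called. Mmp2, the gelatinase A of connective tissue, with 20301 to 20928 in muscle and 19758 to 35765 in periosteum, overlapped.

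BMP and TGF-beta ligands bind paired receptors and signal through SMAD proteins, and secreted antagonists such as noggin hold them back. Of 16 measured ligands 0 were called. Bmp2 was at 1775, 2001 and 810.0 in muscle and at 312, 316 and 651 in periosteum, without overlap and with an adjusted p of 0.072 (log2 fold change 1.83, SE 0.48). Bmp4 was at 723, 584 and 679 in muscle and at 822, 577 and 432 in periosteum. Of 11 receptors, the co-receptor Tgfbr3 was called, 3.83-fold higher in muscle, a call lost without any 1 library except periosteum replicate 1. Of 18 antagonists, 3 were called higher in periosteum and 1 higher in muscle, and without muscle replicate 1 or 2 the periosteal count was 1. Nog (noggin) was at 0, 4.17 and 3.38 in muscle and at 158, 47.5 and 142 in periosteum (adjusted p = 0.039). Bambi, a decoy receptor that BMP signalling itself induces, was at 755, 886 and 881 in muscle and at 2392, 3747 and 3566 in periosteum (3.78-fold, adjusted p = 0.0065). Ltbp2 was 7.25-fold higher in periosteum. Sostdc1 was at 14, 48.8 and 17.6 in muscle and listed at 0 in every periosteum library. Among 8 BMP target genes, Dlx5 and Bambi were called higher in periosteum, and Id1, Id2 and Id3, direct SMAD targets, had no call. That count was 1 without muscle replicate 1 or 2 or periosteum replicate 3.

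Other signalling genes gave few calls. Of 26 Wnt ligands and receptors, Fzd4 and Wnt2b were called higher in muscle and Wnt4 higher in periosteum. Wnt4 was not called without any 1 muscle library or without periosteum replicate 2. It was at 105, 72.4 and 74.3 in muscle and at 512, 673 and 478 in periosteum. Of 11 Wnt antagonists and 7 Wnt targets 0 were called. Of 17 FGF genes, Fgfr3, a receptor of chondrocytes and osteoblasts, was called higher in periosteum (6.14-fold) but not without muscle replicate 1 or 3 or periosteum replicate 2 or 3, and Fgfr2 was 5.87-fold higher with an adjusted p of 0.051. Of 20 Hedgehog and Notch genes, 3 were called higher in muscle, and all 3 belong to Notch. Notch3, a receptor of mural cells, was at 2001, 2805 and 4271 in muscle and at 48.7, 204 and 382 in periosteum. Heyl, a Notch target, was 5.91-fold higher, and Hey2 was at 109.8, 189 and 195 in muscle and listed at 0 in periosteum. The number called was 1 without muscle replicate 1 or 3 and 5 without periosteum replicate 2. Among 13 IGF and 7 PDGF genes 0 were called.

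Markers used for skeletal stem cells and stroma gave 1 call among 15, Acta2, higher in muscle. Libraries did not overlap for 5 of the 15 toward muscle and for 2 toward periosteum, against 17.6% and 10.8% of all genes. Mcam, Nes, Kitl and Angpt1 had higher means in muscle without a call, with 1607 against 81.0 for Mcam and 164 against 6.29 for Nes. Without periosteum replicate 3 the list gave 4 calls, without periosteum replicate 1 it gave 2, and without periosteum replicate 2 it gave 1 in each direction. Ctsk (cathepsin K), a marker of periosteal stem cells as well as of osteoclasts, was at 1749, 1964 and 2586 in muscle and at 3791, 3349 and 3096 in periosteum (adjusted p = 0.14). Lepr, a receptor of marrow stroma, was at 606, 555 and 561 in muscle and at 2436, 448 and 1302 in periosteum. Postn (periostin) was at 4206, 4353 and 8575 in muscle and at 6824, 2157 and 17113 in periosteum. Itgav was at 1412, 1109 and 905 in muscle and at 1181, 921 and 896 in periosteum. Grem1 was low in both tissues, with 13.6 at most in muscle and 65.0 at most in periosteum. The groups overlapped for Lepr, Postn, Itgav and Grem1, and limb position genes (20 measured) had 0 calls.

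Cell cycle genes had 0 calls among 36 measured, with a median log2 fold change of 0.26, close to that of all genes. Mki67, which dividing cells express, was at 80.9, 8.84 and 81.1 in muscle and at 63.1, 244 and 292 in periosteum (adjusted p = 0.41). Pcna, the sliding clamp of DNA replication, was at 1037, 769 and 719 in muscle and at 1045, 1135 and 795 in periosteum. Under quantile normalization the median of the list was -1.01, so no direction is given for it. Of 15 genes of quiescence and cycle inhibition 0 were called. Btg2, an antiproliferative gene that is also an early response gene, was at 28212, 25544 and 22372 in muscle and at 889.7, 9211 and 5452 in periosteum (adjusted p = 0.081), and Cdkn1a (p21) had a log2 fold change of -0.68 without a call. Of 19 glycolysis genes, Eno3, the muscle enolase, and Slc2a1 were called higher in muscle. Both calls were lost without any 1 muscle library and without periosteum replicate 2.

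**Figure D4:**
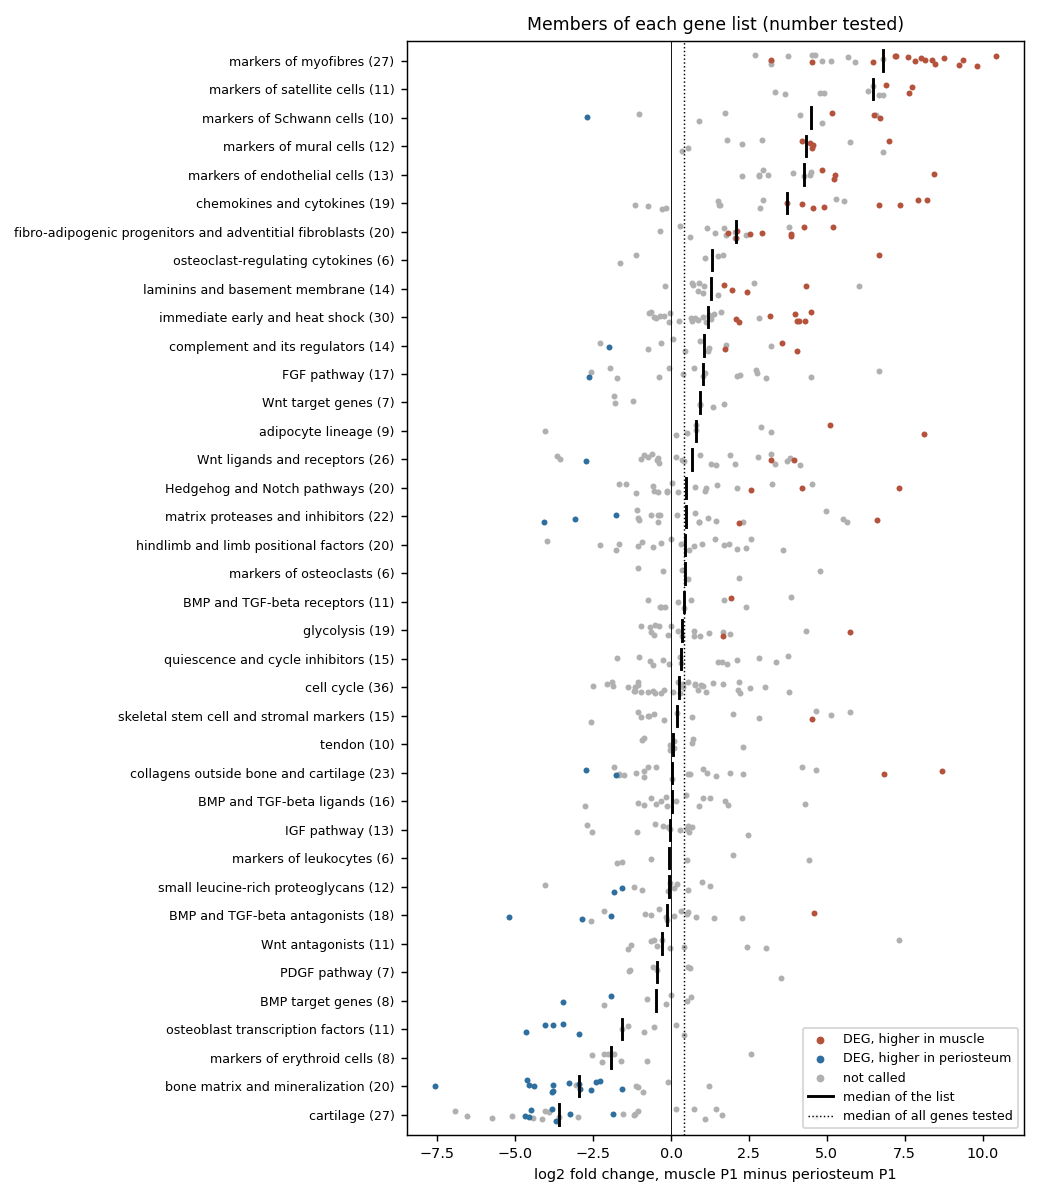
Log2 fold change of each measured member (points) of 38 gene lists, muscle P1 minus periosteum P1, with the number tested in brackets and lists ordered by their median (black bar). Red and blue points are the differentially expressed genes (DEG) called higher in muscle and in periosteum; cartilage and bone lists lie at the bottom with medians of -3.60 and -2.94, and myofibre markers at the top with 6.79, while the dotted line marks the median of all genes, 0.41.

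Whether the tissue difference of P1 cells was particular to them was tested against P2 and P3 cells of the same tissues. An interaction contrast took the muscle minus periosteum difference of P1 and subtracted the mean of the P2 and P3 differences, over 18 libraries. Of 16062 genes tested, 206 (1.28%) were called, at an adjusted p below 0.05 and a contrast above 1.5 in size, 130 with a positive and 76 with a negative contrast, and 50 of the 206 were also among the 800 genes called in P1. With P3 alone as the other side 14 genes were called, and with P2 alone 1384, so the count rests mostly on P2. Myofibre and globin RNA differed widely between the P2 groups. The fibre gene Ckm had means of 183438 in muscle P2 and 66.7 in periosteum P2, and the globin gene Hbb-bs 62655 and 1716710. The part of fibre and erythroid RNA in the P2 differences, that of Col1a1 among them, was not tested.

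Type I collagen was among the called genes. Col1a1 was higher in periosteum by 2.94 on the log2 scale in P1 and by 1.13 in P3, whereas in P2 it was higher in muscle by 1.72, and the contrast was -3.23 (SE 0.51, adjusted p = 0.0044). Col1a2 had a contrast of -2.67. Phospho1 had mean levels of 2.19 and 548 in P1 of muscle and periosteum, 169 and 36.8 in P2, and 7.08 and 12.6 in P3. Its contrast was -9.66. The periosteal excess of these 3 genes in P1 thus differed from the mean of the other 2 populations. They were the only ones called in this contrast among the 20 measured genes of bone matrix and mineralization. Bglap had log2 differences (muscle minus periosteum) of -4.63 in P1, -6.29 in P2 and -3.17 in P3, and Ibsp had -3.79, -3.75 and -3.73. Of the 11 osteoblast transcription factors 0 were called, and of the 30 stress and immediate early genes 1. Hspa1b had differences of 4.50 in P1, 3.87 in P2 and 4.96 in P3. Comp (contrast 2.61) and Fmod (2.62) had positive contrasts, although that of Comp was -0.21 against P3 alone, and periosteum P2 held far more of each than muscle P2, with means of 34460 and 218 for Comp and 37765 and 1298 for Fmod.

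Of the 36 cell cycle genes, 0 were called in P1 and 7 in the interaction contrast, against 1.28% of all genes, all 7 with a positive contrast. The contrast of Mki67 was 2.58 with an adjusted p of 0.25. Pcna was at means of 842 and 992 in muscle and periosteum P1, 533 and 7098 in P2, and 824 and 3050 in P3 (contrast 2.56, adjusted p = 0.0057). Ccna2 (contrast 4.74) and Hmgb2 (3.54) likewise lay higher in periosteum in P2 and P3. Erythroid genes were also higher in periosteum in those populations. Car2 was at means of 127 and 321 in P1 of muscle and periosteum, 3357 and 129249 in P2, and 503 and 22200 in P3, and the part of erythroid RNA in the P2 and P3 values was not tested. Muscle P2 held glycolytic RNA, like that of the fibre gene Ckm, at far higher levels than any P1 group. Gapdh had a mean of 298844 in muscle P2 against 14600 in muscle P1. Gapdh and Aldoa had contrasts of -1.78 and -2.83, which were 0.87 and 0.63 against P3 alone. Cd36, called higher in muscle P1, was at means of 985 and 4.30 in P1, 976 and 4723 in P2, and 19066 and 6922 in P3 (contrast 8.53).

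**Figure D5:**
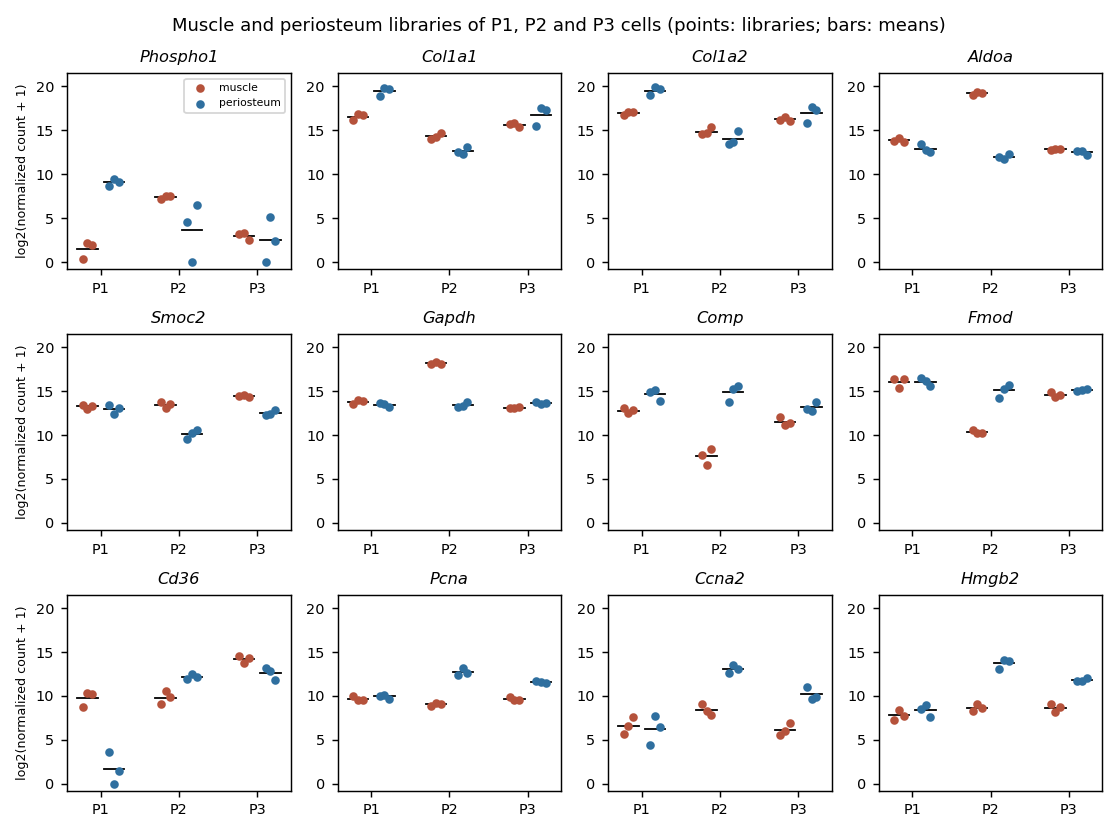
Log2(normalized count + 1) of 12 genes in the muscle (red) and periosteum (blue) libraries of P1, P2 and P3 cells, 3 libraries per group, with a bar at each group's mean. In P1 Col1a1, Col1a2 and Phospho1 lie higher in periosteum, and Pcna, Ccna2 and Hmgb2 overlap between tissues, while in P2 and P3 these last 3 genes lie higher in periosteum.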

How the data were processed

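RNA of sorted P1 cells was measured in 3 muscle and 3 periosteum libraries, made with SMART-Seq v4 and Nextera XT, which keep no strand. Per the study's methods the authors trimmed reads with Trim Galore, aligned them with STAR and used DESeq2, and the signal values used are their deposited normalized counts. The genome build and counting tool are not given in the sources used here. Read counts were not used here, so depth is unknown and the number of libraries limits the precision.

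Genes at 10 or more in at least 3 of the 6 libraries (13493) were tested on log2(value + 1) with limma 3.58.1 in R 4.3.3 (trended empirical Bayes, Benjamini-Hochberg adjustment, two-sided, no block). A gene was called at an adjusted p below 0.05 and a log2 fold change above 1.5 in size. Fold changes are on the log2(value + 1) scale, which understates low genes. The interaction with P2 and P3 cells used 18 libraries, with an adjusted p below 0.05 and a contrast above 1.5 in size. Groups came from the labels. The labels do not say which libraries share an animal, so numbers were not treated as pairs. Deviations of same-numbered muscle and periosteum libraries correlated at -0.04, -0.04 and -0.01, which cannot exclude a shared animal. On data simulated for the P1 comparison (13493 genes), 25 of 100 genes changed by 3 on the log2 scale were recovered. Of 100 genes changed by 5, 49 were recovered. In the same simulation 7 of 13293 unchanged genes were called. Whether these numbers hold for the 6 libraries was not tested. The median SD of the libraries on the log2 scale was 0.44 in muscle and 1.13 in periosteum.

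Members and gene lists were chosen with earlier results of these data known. Genes were named by a rule: the 12 largest changes each way at a mean of 100 or more, the 6 of highest level, a list of 18 genes, and of each gene list up to 8 calls each way and the 3 most abundant members without a call. Other genes named were chosen after their values were seen. Some genes that the rule selects are not reported here. Promoter sequences came from RefSeq on GRCm38.p6 and were matched by symbol.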

Additional observations from a re-analysis of the deposited data

Results flagged for a closer look

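The tissue difference in P1 departed from the mean of the P2 and P3 differences, by an interaction contrast in limma, for 206 of 16062 genes at an adjusted p below 0.05 and a contrast above 1.5 in size. The values below are contrasts on the log2 scale, positive where the muscle minus periosteum difference was higher in P1, and they were selected by the naming rule among the called genes. The part of erythroid RNA in periosteum P2 and P3 and of myofibre and glycolytic RNA in muscle P2 was not tested.

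Matrix and mineral genes had contrasts of -9.66 for Phospho1, -3.23 for Col1a1, -2.67 for Col1a2, -2.33 for Smoc2 and -2.26 for Adamts2. Comp (2.61), Chad (3.07), Fmod (2.62) and Col12a1 (3.03), which cartilage or tendon cells express, were positive, although that of Comp was -0.21 against P3 alone. The complement gene Cfp had a contrast of -6.19, and the growth factor Igf2 had -4.05.

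DNA replication and division genes were positive in contrast, with 2.56 for Pcna, 6.35 for Mcm3, 5.09 for Mcm7, 4.74 for Ccna2, 5.78 for Aurka, 3.54 for Hmgb2, 1.89 for Ccnd3, 9.38 for Fbxo5, 9.2 for Kif18b and 8.82 for Brca1. The cycle inhibitors Rbl1 and Btg2 had 5.69 and 2.95. Erythroid genes were positive as well, with 6.45 for Tfrc and 4.57 for Car2. Glycolysis genes were negative, with -1.78 for Gapdh, -2.83 for Aldoa and -1.91 for Ldha. Against P3 alone Gapdh and Aldoa had 0.87 and 0.63.

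The remaining genes were Fam132b (12.99), Nup210 (9.22), Cd36 (8.53), the satellite cell gene Myf5 (7.43), the endothelial gene Esam (5.16) and the Schwann cell gene Cdh19 (5.07) on the positive side. On the negative side were Mstn (-8.66), which encodes the muscle growth inhibitor myostatin, Lrrc47 (-8.60), Spns2 (-7.80) and Aldh3a2 (-7.78).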

How the results depend on the processing

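The count of 800 genes called (645 higher in muscle, 155 higher in periosteum) was 415 (288 in muscle) when only genes of mean 50 or more were tested and 374 (266 in muscle) with no filter. Quantile normalization gave 423 higher in muscle and 265 higher in periosteum. Leaving out 1 library at a time gave 456 to 1152 calls, 370 to 970 higher in muscle and 78 to 217 higher in periosteum. The lowest totals were 456, 462 and 481 without muscle replicates 1, 2 and 3. The cause of these changes was not tested. Of 121 named genes called, 60, 66 and 67 were still called without muscle replicates 1, 2 and 3, and 99 to 118 without 1 periosteum library. None of the 121 changed direction under any alternative run.

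With the replicate number as a block, 653 genes were called in P1 and 181 in the interaction. Whether libraries of the same number share an animal is not known. The interaction count of 206 (130 positive, 76 negative) was 1384 (635 and 749) against P2 alone and 14 (12 and 2) against P3 alone. A pseudocount of 0.1 gave 135, of which 43 were negative. Without 1 P1 library it was 59 to 211, with 40 to 146 positive and 17 to 65 negative, and the lowest was without muscle replicate 3. Against P3 alone the contrast changed sign for Comp (-0.21), Gapdh (0.87) and Aldoa (0.63). The periosteum libraries had a wider spread than the muscle libraries (median SD 1.13 against 0.44 on the log2 scale), and its part in which genes were called was not tested.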
